A study of Oryza sativa with 2 samples.

Results

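COBRA genes encode plant proteins that a lipid anchor (glycosylphosphatidylinositol, GPI) holds at the outer face of the plasma membrane and in the cell wall. Cellulose is spun out at that membrane by moving cellulose synthase complexes. In Arabidopsis, COBRA keeps the microfibrils oriented in expanding cells and COBRA-like 4 acts in thickening secondary walls. In rice, the COBRA-like gene BRITTLE CULM1 (BC1) is needed for strong stems.

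The genes described here were all those whose annotation in the deposited list of peaks holds the word COBRA, 4 of the 14709 genes in the list. A gene enters that list only if a peak overlaps the window of 2 kb to either side of its start, so having a peak is how these genes were chosen and is no result about them. The study asked where the rice basic helix-loop-helix factor OsbHLH002 sits on the genome in work on secondary wall formation. Its 2 samples were a FLAG immunoprecipitation (IP, 1 library) and the input chromatin (1 library), both from transgenic rice plants of the line Osbhlh002-1 gOsbHLH002-3FLAG, in which the Osbhlh002-1 mutation is combined with a genomic OsbHLH002 copy carrying a FLAG tag. Both libraries share this genotype, and the labels name no untagged plant, tissue, age or treatment. The sole comparison is therefore IP over input, with 1 library on each side and no replicate. No test between samples could be made, and the intervals below cover the counting of fragments and not the spread between plants.

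For each peak the authors' list gives a fold enrichment of IP over local background at the summit, the highest point of the peak, and a q-value as −log10. From the fold and the p-value, the number of IP fragments covering the summit and the background expected there were recovered. Over all 12487 distinct peaks in the list the median fold was 3.13 (quartiles 2.57 and 4.10), the median width 445 bp, and the median IP count at the summit 20 fragments (quartiles 16 and 26), with a median background of 5.19.

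The COBRA genes carried peaks close to their starts, and 3 of the 4 were well above the middle of the list in strength. The folds ran from 3.50 to 5.97 with a median of 5.11, against 3.13 over all genes in the list. All 4 summits lay within 399 bp of the start of the gene, and 3 of them lay upstream of it. The genes sit on 3 chromosomes: LOC_Os03g18910 and LOC_Os03g54750 on 3, LOC_Os07g49080 on 7 and LOC_Os10g35460 on 10.

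LOC_Os03g18910, described as a COBRA-like protein 7 precursor, had the strongest and widest of the 4 peaks. The gene runs from 10598952 to 10601530 on the plus strand of chromosome 3 (2579 bp), and its peak from 10597817 to 10599263 (1447 bp). At the summit the IP had 36 fragments (95% exact Poisson interval 25.2 to 49.8), against a local background of 5.19. The fold was 5.97 (4.23 to 8.21 from the counting of IP fragments) and the −log10 q was 15.9. The summit, at 10598954, lay 2 bp downstream of the annotated start. The peak was not centred there: it reached 1135 bp upstream of the start and 311 bp into the gene. By fold it ranked 934 of 12487, above 92.5% of peaks, and by width it was above 95.3%.

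LOC_Os07g49080 carries the same description and came next. It lies on the minus strand of chromosome 7 from 29382724 to 29385096 (2373 bp), with a peak from 29385004 to 29386051 (1048 bp). The IP had 30 fragments at the summit (20.2 to 42.8), against a background of 4.57, a fold of 5.57 (3.82 to 7.87) with a −log10 q of 12.6. The summit was 195 bp upstream of the start, and the peak covered the start with 92 bp of the gene and 955 bp before it. Its fold stood above 90.3% of peaks.

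The list placed this peak on 3 genes, while 3 of the 4 COBRA genes had a peak of their own, as did 70.4% of all genes, so position alone does not assign it to a single gene. LOC_Os07g49090, a WD-40 repeat protein gene on the same strand, lies 593 bp upstream of the COBRA gene. The summit was 399 bp past its 3′ end and 1313 bp from its start. The peak also ran into the body of this WD-40 gene, from its 3′ end at 29385690 to 29386051. LOC_Os07g49100 encodes a pectinesterase, an enzyme that removes methyl groups from wall pectin, and runs the other way. Its start was 2750 bp from the summit, and only 10 bp of the peak reached into its window. Of these 3 genes, the COBRA gene had the start closest to the summit.

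LOC_Os10g35460, described simply as COBRA, had a peak with as many IP fragments on a higher background. The gene runs from 18976009 to 18979110 on the plus strand of chromosome 10 (3102 bp), and the peak from 18975461 to 18976300 (840 bp). At the summit the IP had 30 fragments (20.2 to 42.8), against a background of 5.66, a fold of 4.65 (3.19 to 6.58) with a −log10 q of 10.3. The equal fragment counts of this gene and LOC_Os07g49080 mean that their fold difference came from the background. The summit lay 140 bp upstream of the start, and the peak took in 548 bp before the start and 291 bp of the gene. The space before the gene is short: LOC_Os10g35450, a serine/threonine protein kinase gene on the same strand, ends 778 bp before the COBRA start, and the peak began 230 bp past that end. The kinase gene was named after its position was seen. The fold of the COBRA peak was above 82.6% of peaks.

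LOC_Os03g54750, described as a COBRA-like 3 protein precursor, had the weakest, narrowest and most distant of the 4 peaks. The gene lies on the minus strand of chromosome 3 from 31124547 to 31126654 (2108 bp), and the peak from 31126934 to 31127266 (333 bp). The IP had 19 fragments at the summit (11.4 to 29.7), against a background of 4.72, a fold of 3.50 (2.17 to 5.36) with a −log10 q of 4.65. The summit was 399 bp upstream of the start, and the whole peak stayed at least 280 bp away from it. The fold stood above 62.2% of peaks, but the fragment count, which is not corrected for background, stood above 43.7% of them, on the other side of the median.

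**Figure D1:**
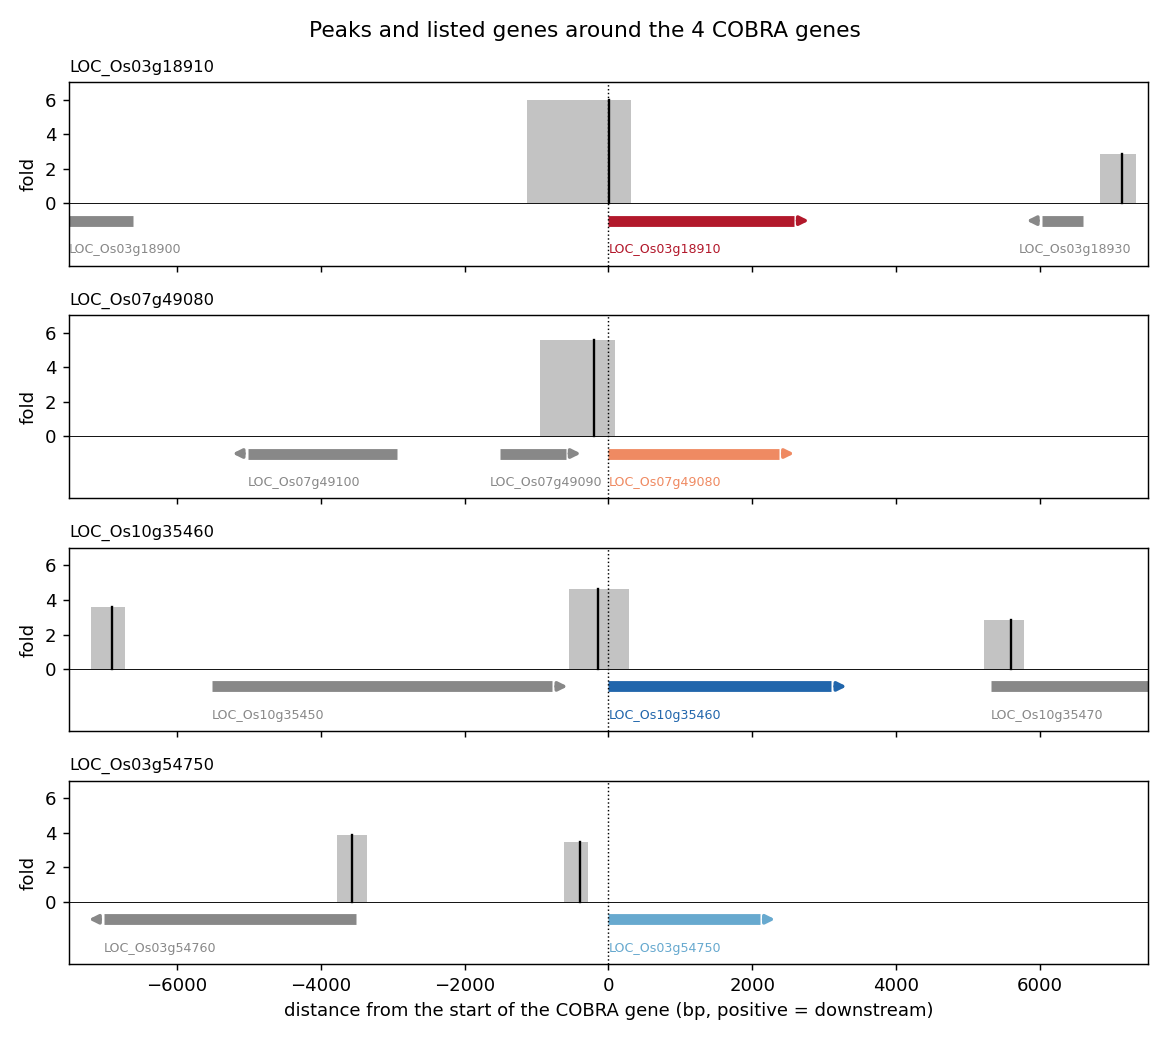
Each panel shows 1 COBRA gene (coloured bar, arrow in the direction of transcription) with the other listed genes around it (grey bars), by distance from its start in bp. Grey blocks are peaks from edge to edge with the height of their fold, and black lines are summits; genes cut by the panel edge have no arrow. The peaks of the upper 3 genes cover the start at distance 0, and that of LOC_Os03g54750 ends 280 bp before it.

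The order by fold was the same as the order by −log10 q and by peak width, and it separated the genes only weakly. The strongest fold was 1.71 times the weakest. Their counting intervals overlapped (4.23 to 8.21 for LOC_Os03g18910 and 2.17 to 5.36 for LOC_Os03g54750), as did those of every other pair, so at this depth no neighbours in the order could be told apart by their intervals. The 4 local backgrounds, from 4.57 to 5.66 fragments, lay between 1.03 and 1.28 times the lowest background in the list, 4.44.

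**Figure D2:**
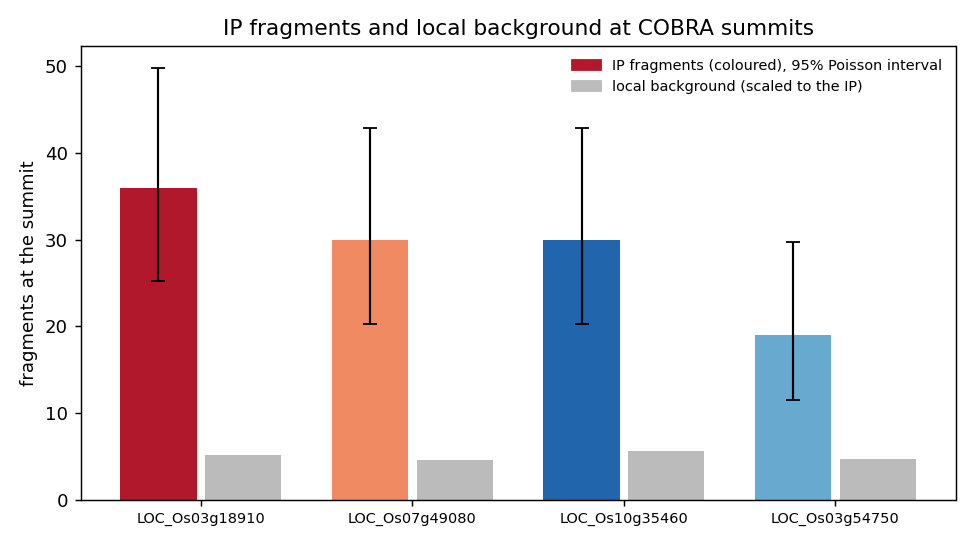
For each COBRA gene the coloured bar gives the IP fragments at the summit with a 95% exact Poisson interval, and the grey bar the local background on the scale of the IP. The IP bars stand at 36, 30, 30 and 19 fragments from left to right, beside backgrounds of 4.57 to 5.66. Peaks were called for exceeding their background, so the distance between the bars is no test of binding.

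Against the list as a whole, the COBRA peaks were described by counts. All 4 passed a deposited q of 0.05, as did 90.1% of genes in the list, so that count says little. All 4 had a fold at or above the median of peaks, against 50.8% of genes, and 3 were at or above the upper quartile of 4.10, against 25.1%. All 4 summits lay within 1000 bp of the start, against 63.3% of genes, and 3 within 250 bp, against 35.8%. The median distance to the start was 168 bp for the COBRA genes and 549 bp for all genes. The 3 upstream summits of 4 compare with 63.2% of genes, a share near that of the list. The peak covered the start in 3 of 4, against 36.9% of genes. The same 3 genes, LOC_Os03g18910, LOC_Os07g49080 and LOC_Os10g35460, were both at or above the upper quartile and within 250 bp, a combination chosen after the values were seen and held by 7.72% of all genes. With 4 genes these counts are a description, and no test was made on them.

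**Figure D3:**
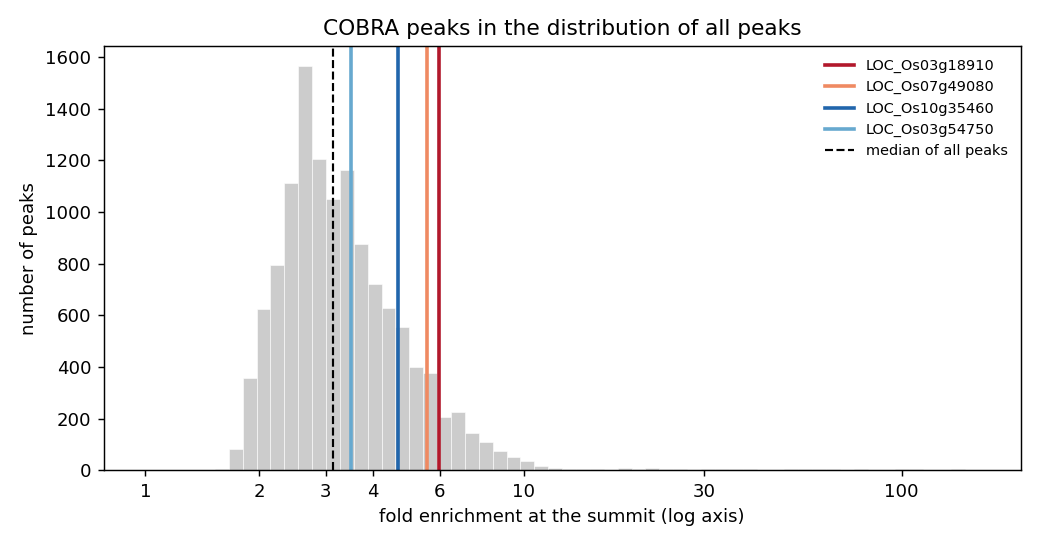
Grey bars count the 12487 peaks by fold enrichment on a log axis, and the dashed line is their median of 3.13. Coloured lines mark the 4 COBRA peaks, which all stand to the right of the median, at 3.50, 4.65, 5.57 and 5.97.

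Peak numbers in the list rise along each chromosome, so a missing number marks where a peak that was not analysed here would lie. Around LOC_Os10g35460 no number was missing: its peak, number 4252, followed 4251 and preceded 4253, with 6174 bp and 4934 bp of space to them. Around LOC_Os03g54750 the numbers were also complete, and no other peak lay in the 40334 bp toward lower coordinates, the side that holds the gene. On the upstream side the next peak lay 2738 bp away, at the start of LOC_Os03g54760, a mitochondrial carrier protein gene. It was somewhat stronger than the COBRA peak, with a fold of 3.90 and its summit 44 bp inside that gene. For LOC_Os03g18910, 1 number was missing in the 7194 bp before its peak and 2 in the 6529 bp after it, a stretch that holds most of the gene. For LOC_Os07g49080, 1 was missing in the 18137 bp toward higher coordinates, the upstream side of the gene. Where in these stretches the missing peaks lie is not known. Because each gene occurs in the list with only 1 peak, a missing number may be a further peak of a listed gene, COBRA genes included.

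The COBRA genes were set beside a list of 16 genes of cellulose synthesis and deposition, with identifiers from general knowledge, of which 7 had a peak. The share of all rice genes that have a peak is not known here, so these counts cannot be read as high or low. BC1 (LOC_Os03g30250) and BC1L4 (LOC_Os05g32110), the COBRA-like genes entered in that list, had no entry. Nor had any of the 3 secondary wall cellulose synthase genes, CESA4, CESA7 and CESA9. Absence from the list does not show absence of binding, because 9584 of the 22071 peak numbers do not occur in it. Each gene occurs in the list with a single peak, so some of the missing numbers may be further peaks of listed genes.

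Among the 5 primary wall cellulose synthase genes entered in the list, which encode catalytic subunits used in growing cells, 3 had a peak. The cellulose list does not hold every CESA gene: CESA2 (LOC_Os03g59340, fold 3.96) and CESA10 (LOC_Os12g29300, fold 2.69) also had a peak. These genes were named after their values were seen, and their descriptions give no wall type. CESA6 (fold 3.86, summit 37 bp upstream) exceeded the weakest COBRA gene, LOC_Os03g54750, in fold, with 20 IP fragments against 19. CESA1 (2.22) and CESA8 (2.11) were lower in fold than all 4 COBRA genes, on backgrounds of 8.02 and 8.50 fragments. Both had 19 IP fragments, as LOC_Os03g54750 did, so their lower folds than that gene came from the background. Their counting intervals (1.38 to 3.40 and 1.31 to 3.23) overlapped its 2.17 to 5.36. Their summits lay 210 and 1841 bp upstream. Among the partners of the synthase, 4 of 6 had a peak. GLU1 (LOC_Os03g21210), entered as a KORRIGAN-type endoglucanase that trims glucan at the membrane, had a fold of 7.72 from 65 IP fragments, with its summit 1535 bp upstream. BC3 (LOC_Os02g50550), a dynamin-related protein gene of membrane traffic, had 6.43 with its summit 201 bp upstream. Both folds were above that of the strongest COBRA gene, LOC_Os03g18910. The counting intervals of GLU1 (5.98 to 9.81) and BC3 (4.51 to 8.92) overlapped its interval of 4.23 to 8.21. BC3 had 34 IP fragments, fewer than the 36 of LOC_Os03g18910, on a lower background of 4.44. BC14 (LOC_Os02g40030), entered as a transporter of nucleotide sugars into the Golgi and described in the list as a transporter family gene, had 4.41 with its summit 60 bp downstream. BC10 (LOC_Os05g07790), entered as a glycosyltransferase but described in the list as a DNA binding protein, had 2.22. BC12, a kinesin gene, and BC15, a chitinase-like gene, had no entry.

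Grouped by description, other wall genes with a peak had lower medians. The COBRA median of 5.11 compares with 3.34 for 20 cellulose synthase and synthase-like genes, 3.68 for 14 fasciclin genes, 3.49 for 11 arabinogalactan genes (6 of them also fasciclin genes) and 2.99 for 14 endoglucanase genes. Fasciclin-like arabinogalactan proteins, like COBRA proteins, are often GPI-anchored. The highest fold among the fasciclin genes was 4.19, below that of 3 of the 4 COBRA genes, and among the cellulose synthase genes it was 5.37 (CSLF6), below that of 2. Endoglucanase genes reached a fold of 7.72. By other measures the order differed. The −log10 q of CSLF6 was 16.1, above the highest COBRA value of 15.9, and CSLC9 had 45 IP fragments, more than the highest COBRA count of 36. The fasciclin gene at 4.19, LOC_Os01g62380, had 29 IP fragments against 30 for LOC_Os10g35460, whose fold interval was 3.19 to 6.58. Within 250 bp of the start lay 3 of 4 COBRA summits, 9 of 20 cellulose synthase, 6 of 14 fasciclin, 9 of 11 arabinogalactan and 5 of 14 endoglucanase summits. No gene was described as chitinase-like. These medians rest on 1 library and on groups of unequal size, and they were not tested against each other.

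**Figure D4:**
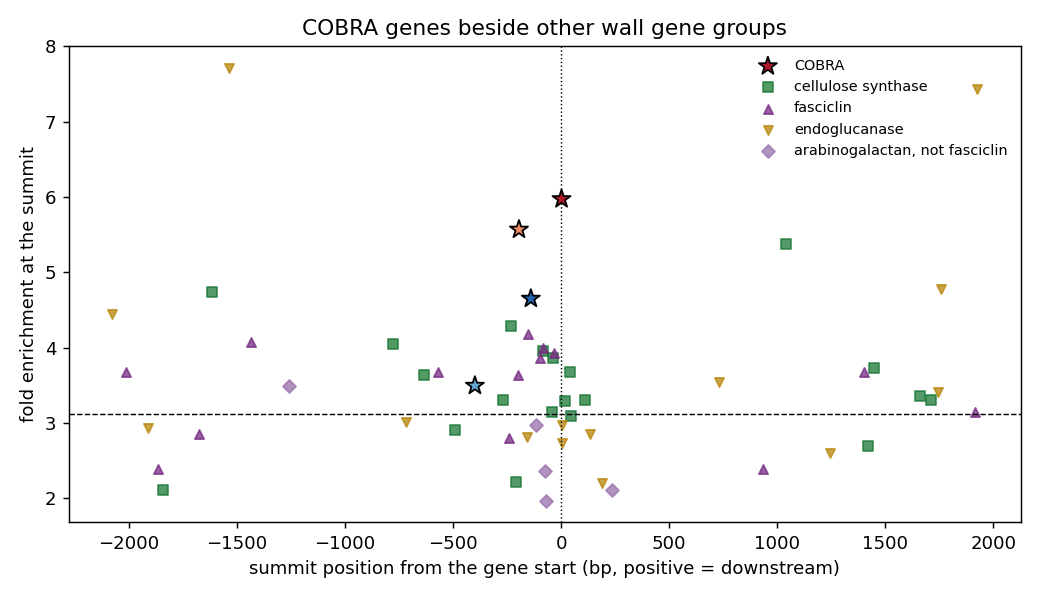
Each symbol is 1 gene with a peak, placed by the summit's distance from the gene start (horizontal, bp) and the fold enrichment (vertical); stars are COBRA genes and the dashed line is the median of all peaks. The upper 3 stars, at 4.65, 5.57 and 5.97, stand above the fasciclin genes, which reach 4.19, while the endoglucanase gene GLU1 at 7.72 is higher. The counting interval of the star at 4.65 (3.19 to 6.58) takes in 4.19.

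The wall gene whose peak was most like each COBRA peak was found among 53 genes of these groups, in 1 IP library, as the smallest sum of the difference in log2 fold and the difference in summit position in kb. For LOC_Os10g35460 it was LOC_Os01g62380, a fasciclin-like arabinogalactan gene (fold 4.19, 155 bp upstream, sum 0.168). LOC_Os03g54750 was closest to CSLF4 (LOC_Os07g36740), of a mixed-linkage glucan synthase family (fold 3.31, 270 bp upstream, sum 0.209). The 2 stronger genes had larger sums: LOC_Os07g49080 came closest to CSLC9 (LOC_Os03g56060, fold 4.28, 233 bp upstream, sum 0.417), and LOC_Os03g18910 to LOC_Os04g48490, a fasciclin-like arabinogalactan gene (fold 3.92, 31 bp upstream, sum 0.639).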

How the data were processed

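The submitters' processing notes name MACS2 2.2.7.1 and Bowtie2 2.4.2, besides Picard and SAMtools. Which genome build, annotation release and threshold were used is not stated there. The authors deposited 1 list of IP peaks joined to gene models. Its fold is a ratio, not on a log scale, that sets the IP against the local background. Its p and q values are deposited as −log10, and the deposited score column was not analysed. Coordinates are as deposited, counted from 1. Pileup and background were recovered by solving fold = (pileup + 1) / (background + 1) and an upper Poisson tail for a whole-number pileup, allowing the −log10 p to differ by 0.0002 plus 0.0001 of its value. Each COBRA peak had 1 solution, and the solver was tested on simulated data. Total reads per library are unknown. Fragments carry no molecular identifiers, so the 95% exact Poisson intervals cover counting error only and hold the background fixed.

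The members, lists and alternatives were chosen with earlier results of these data known. Named genes were all COBRA genes, genes sharing their peak or with a peak within 5 kb of their start, cellulose list genes with a peak, and the most alike wall gene of each. Outside this rule, cellulose list genes without a peak were named to complete its counts, and CSLF6, CESA2, CESA10 and LOC_Os10g35450 after their values or positions were seen. The GPI genes named under other observations were also chosen after the list had been seen. The list of peaks does not pair identifiers with symbols for most genes, and 0 of the 4 COBRA identifiers were found among 39387 entries of the RefSeq gene table of another assembly, so no sequence was used. Computations used Python 3.11.15 with pandas 2.3.3, numpy 2.4.6, scipy 1.17.1 and matplotlib 3.10.9. Alternatives covered the q threshold, the distance to the start, the rule for members, the ranking and the background.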

Additional observations from a re-analysis of the deposited data

How the results depend on the processing

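Under 44 alternatives over 12 results, every count stayed within 1.5 times its reported value. For the counts and median fold of the COBRA genes, the q threshold and the 1 kb limit removed no gene. Those alternatives therefore only repeated the reported values. Each COBRA fold stayed within its counting interval, and each rank within the ranks of that interval's ends. These are wide: for LOC_Os03g54750 they ran from 8.83 to 88.9% of peaks, so the change from 62.2 to 43.7% with pileup in place of fold, across the median, lies inside them. Genes described as phytochelatin synthetase, an older name given to COBRA-like proteins, added none to the 4. Without the peak shared with other genes, an alternative added after seeing the data, 3 genes were left with a median fold of 4.65. The percent of peaks below each COBRA peak ranged from 90.01 to 93.3 for LOC_Os03g18910, 82.0 to 91.3 for LOC_Os07g49080, 80.7 to 84.0 for LOC_Os10g35460 and 43.7 to 64.5 for LOC_Os03g54750. The upper ends, added after seeing the data, are ranks among the 8724 peaks whose summit lay 1 kb or less from a listed start. Without the caller's added 1, the folds would be 6.93, 6.57, 5.30 and 4.03 in the same order. With a summit within 1 kb of the start, 5 of the 7 cellulose list genes were left. No paired analysis was possible because there was 1 IP and 1 input library. With 19 to 36 fragments per summit, depth limits any ranking among the 4 genes.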

Other observations

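COBRA proteins reach the membrane by their GPI anchor, so genes described with the word GPI were looked up after the list had been seen. The list held 13, with a median fold of 3.12 against 3.13 over all genes. Of these 13, 6 were at or above the median of peaks, against 50.8% of all genes in the list. Their folds ran from 2.10 to 27.9, and only some of the 13 are named here. LOC_Os01g64990, for the PIG-U subunit of the transamidase that attaches the anchor, had a fold of 6.43 (4.51 to 8.92 from counting) with its summit 1433 bp upstream of the start. The PIG-S-related gene LOC_Os01g67960, of the same enzyme, had 4.04 with its summit 1237 bp upstream, and another PIG-U gene, LOC_Os02g46350, had 2.57. LOC_Os03g46750, for a mannosyltransferase of anchor synthesis, had 3.55. The highest was LOC_Os04g42210, described only as a GPI-anchored protein gene, with a fold of 27.9 from 172 IP fragments over a background of 5.19, while its neighbour by identifier, LOC_Os04g42220, with the same description, had 3.49.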
